A study of Mus musculus with 6 samples.

Results

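The expression of Fibcd1 and of 9 genes of the perineuronal matrix, Acan, Bcan, Ncan, Vcan, Hapln1, Hapln2, Hapln4, Tnr and Ptprz1, was followed in cultured cerebellar granule neurons (CGNs) of the mouse in which the histone methyltransferase EZH2 was or was not inhibited. These 10 genes of the 55341 listed in the count tables were chosen by name, with the difference between GSK-126 and DMSO in these libraries already known. Their difference between the treatments is therefore given as a description and without a test. The data are RNA-seq counts from 6 libraries. In 3 of them the CGNs had received GSK-126, a small-molecule inhibitor of EZH2, and in the other 3 its vehicle DMSO. Cells came from the cerebella of CD1-IGS mouse pups at P6 to P8, with no transgene or deletion in either group, and each replicate pooled litters. Granule neuron progenitors were enriched on a Percoll gradient, plated, and given AraC, which removes dividing cells, in both groups. GSK-126 or DMSO was given at DIV3, and RNA was taken at DIV5. These days are those of the culture protocol. The sample titles name CGNs and DIV3 and do not name DIV5, while the labels also name cerebellar tissue. The dose given at DIV3 was not stated in the sources used here.

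Perineuronal nets are condensed sheets of extracellular matrix around neurons. Their core is hyaluronan, a long sugar chain to which the lecticans bind. The lecticans aggrecan (Acan), brevican (Bcan), neurocan (Ncan) and versican (Vcan) are proteoglycans that carry chondroitin sulfate. The link proteins of the Hapln family hold lecticans on hyaluronan, and the glycoprotein tenascin-R (Tnr) crosslinks lecticans at their other end. Ptprz1 encodes a receptor tyrosine phosphatase whose ectodomain, known in soluble form as phosphacan, is itself a chondroitin sulfate proteoglycan. Fibcd1 encodes a transmembrane receptor with a fibrinogen-like domain that binds acetylated sugars and chondroitin sulfate. In the cerebellum, nets are best known around neurons of the deep nuclei, and astroglia and cells of the oligodendrocyte lineage make several of these proteins.

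The 10 genes lie at 10 positions of GRCm38 (GENCODE M21). Fibcd1 (ENSMUSG00000026841.7) is on chromosome 2 from 31813290 to 31846005, and Tnr (ENSMUSG00000015829.13) on chromosome 1 from 159523769 to 159931729. Ptprz1 (ENSMUSG00000068748.7) is on chromosome 6 from 22875502 to 23052916. Each lectican lies next to a link protein gene with no protein-coding gene between them. Bcan (ENSMUSG00000004892.13, chromosome 3, 87987531 to 88000230) lies 21519 bp from Hapln2 (ENSMUSG00000004894.10, 88021750 to 88027583). Ncan (ENSMUSG00000002341.8, chromosome 8, 70093085 to 70120873) and Hapln4 (ENSMUSG00000007594.10, 70083457 to 70090862) are 2222 bp apart. Vcan (ENSMUSG00000021614.16, chromosome 13, 89655312 to 89742509) and Hapln1 (ENSMUSG00000021613.9, 89539796 to 89611652) are 43659 bp apart. The neighbour of Acan (ENSMUSG00000030607.7, chromosome 7, 79053483 to 79115099) is Hapln3, 2 bp away. Only Tnr shares exon sequence with another annotated gene, 443 of its 12867 exon bases with Gm38039 on the opposite strand. The strand setting of the counting was not stated, so reads of that stretch cannot be assigned to 1 of the 2 genes.

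EZH2 acts at promoters rich in CG dinucleotides in many cell types, and the promoters of the genes differ widely in this feature. RefSeq promoters of GRCm38.p6 were found for 9 of the 10 genes, all but Hapln4. CG, which reads the same on both strands, was counted in the 250 bases before the start that RefSeq gives for each. That start need not be the GENCODE limit printed above. The windows of Fibcd1, Tnr and Ptprz1 adjoin their genes as printed. That of Hapln1 (89540386 to 89540635) lies inside its gene, and those of Hapln2 and Ncan overlap theirs. Those of Acan, Bcan and Vcan stand apart from theirs, so the counts do not all describe like positions. Fibcd1 had 34, and 4.12% of the 25174 mouse promoters had as many or more. Acan followed with 26, Ptprz1 with 22, Bcan with 16, Vcan with 10 and Ncan with 6. Tnr, Hapln1 and Hapln2 had 2 each, a number that 83.6% of promoters reached or passed. The median promoter had 8, and 93.0% had at least 1. The sequences of the genes with the largest differences between the treatments in each direction among those tested are shown 5′ to 3′ with CG in capitals. They lie at chr2:31846006-31846255 on the minus strand for Fibcd1 and at chr1:159523519-159523768 on the plus strand for Tnr.
Fibcd1: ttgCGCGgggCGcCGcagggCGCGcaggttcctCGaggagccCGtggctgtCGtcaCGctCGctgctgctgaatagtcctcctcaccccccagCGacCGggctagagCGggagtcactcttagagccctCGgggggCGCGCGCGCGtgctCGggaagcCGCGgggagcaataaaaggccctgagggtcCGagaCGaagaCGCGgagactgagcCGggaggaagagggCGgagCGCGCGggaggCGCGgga
Tnr: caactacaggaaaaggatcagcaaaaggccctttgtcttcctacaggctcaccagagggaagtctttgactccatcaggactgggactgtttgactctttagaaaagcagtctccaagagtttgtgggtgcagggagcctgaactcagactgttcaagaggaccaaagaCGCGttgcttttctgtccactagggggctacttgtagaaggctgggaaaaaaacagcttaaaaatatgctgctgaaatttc
The CG of Fibcd1 stand throughout the sequence, many in unbroken runs, while the only CG of Tnr stand side by side. The libraries hold no measurement of histone marks, so these letters are a description of the promoters alone.

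The libraries held between 7407189 and 13092763 counts on genes. Expression is given as CPM, counts divided by library size, scaled by TMM factors that correct for differences in composition between libraries. The replicate number was kept as a block in the fit, and same-numbered libraries of both groups, called pairs here, deviated together from their group means. Of 16729 genes with enough counts to be tested, 561 (3.35%) were higher and 851 (5.09%) lower with GSK-126 (edgeR's quasi-likelihood test, Benjamini-Hochberg adjusted p under 0.05). Without the block that test called 0 genes (0.0%), 296 higher and 369 lower genes had an unadjusted p under 0.05, and DESeq2 without the block called 20 higher and 1 lower. Lower genes made up 60.3% of the calls with TMM factors and 49.8% or 49.0% with total counts or upper-quartile factors. All 8 granule neuron markers, such as Neurod1 and Zic1, were among the genes tested.

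Of the 10 genes, 8 had enough counts to be tested, and Acan and Hapln1 did not. Their fold changes in the paired fit were above 0 for 4 and below 0 for 4, and no call is read from that fit for them, since they were chosen with this difference known. Of all tested genes, the groups did not overlap for 4.72% in the higher and 4.72% in the lower direction. Among the 10 genes this was so for Fibcd1 alone.

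Fibcd1 was higher with GSK-126. It had 7.36, 4.56 and 6.85 CPM in DMSO replicates 1, 2 and 3, and 12.2, 17.8 and 14.3 CPM in GSK-126 replicates 1, 2 and 3. The lowest GSK-126 library lay above the highest DMSO library. The group means were 6.26 ± 1.49 and 14.8 ± 2.83 CPM (SD, n = 3 each). On the log2 scale the fold change was 1.24, with a standard error of 0.22. Standard errors here are the size of the log2 fold change divided by the square root of the test's F value. That value uses a variance shared in part across genes, so the error can be small beside the spread of the pairs. Within pairs 1, 2 and 3 the log2 ratio was 0.73, 1.97 and 1.06. The library with the least Fibcd1 and the one with the most shared a replicate number, so that pair 2 spans the whole range. The counts behind these values were 64, 49 and 79 with DMSO and 162, 166 and 107 with GSK-126. Fibcd1 kept a log2 fold change between 0.90 and 1.51 over 16 other ways of fitting the data. In bulk RNA, a difference in the number of cells of a type and one in RNA per cell cannot be told apart.

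Tnr was lower with GSK-126 in each pair, by very different amounts. It had 25.2, 108 and 22.1 CPM in DMSO replicates 1, 2 and 3, and 22.5, 25.8 and 9.86 CPM in GSK-126 replicates 1, 2 and 3. DMSO replicate 2 stood far above the other 5 libraries, and without it the groups still overlapped. The means were 51.8 ± 48.8 and 19.4 ± 8.42 CPM (SD, n = 3 each). In the paired fit the log2 fold change was -1.17 (standard error 0.22), from pair ratios of -0.16, -2.07 and -1.17 on the log2 scale. The SD of these ratios was 0.95, so the standard error understates how unlike the pairs were. Whether the pairs responded differently could not be tested with 1 library per treatment and pair. Without pair 2 the log2 fold change of Tnr was -0.60, and without DMSO replicate 2 alone, in a fit with no block, it was -0.28.

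**Figure D1:**
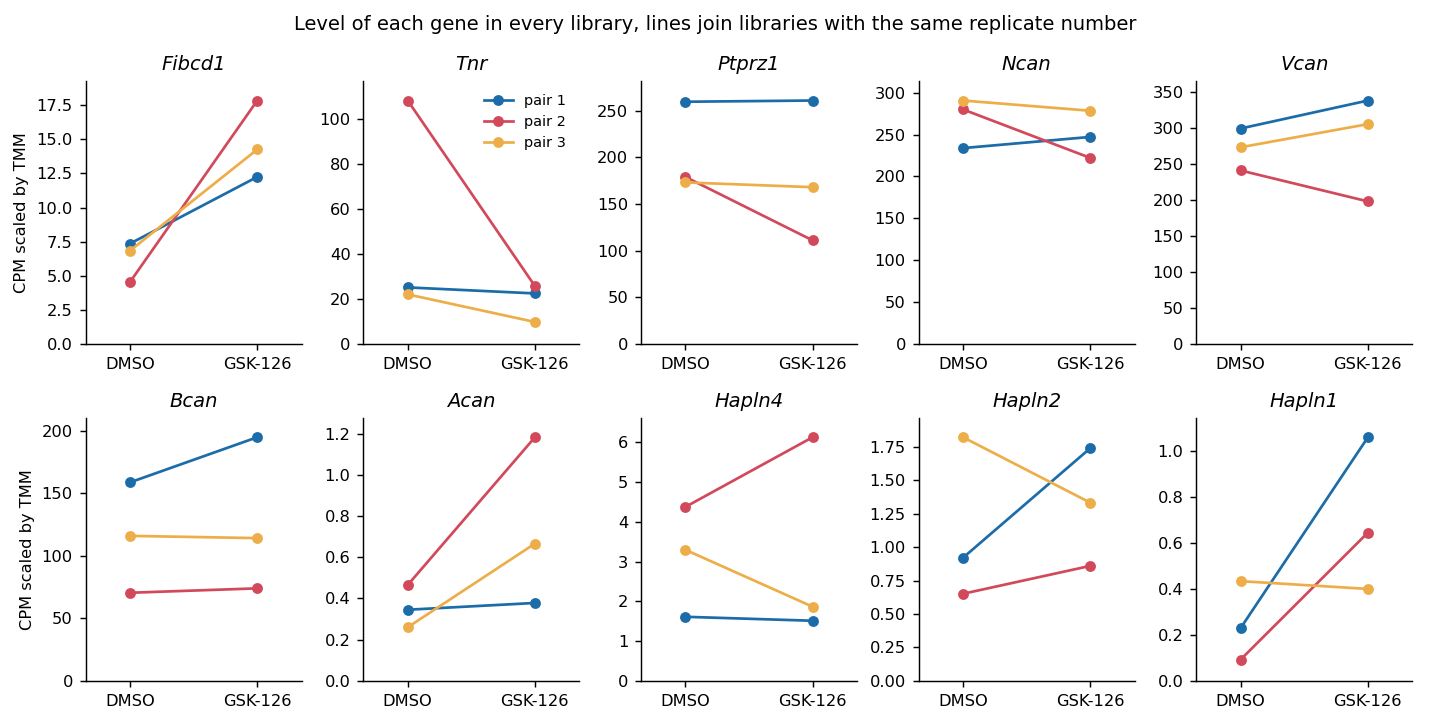
CPM scaled by TMM (vertical axes, linear from 0) of the 10 genes in each library, with lines that join DMSO and GSK-126 libraries of the same replicate number. Fibcd1 rises along all 3 lines, from at most 7.36 to at least 12.2 CPM, while the Tnr panel is set by 1 DMSO library at 108 CPM.

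Ptprz1, the phosphacan gene, was at 259, 179 and 173 CPM with DMSO and 261, 111 and 168 CPM with GSK-126 in replicates 1, 2 and 3. Only pair 2 differed by more than a few percent, with a log2 ratio of -0.69, and the log2 fold change was -0.23 (standard error 0.10). The SD of its pair log2 ratios was 0.39. Without pair 2 the log2 fold change of Ptprz1 was -0.014.

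Of the lecticans, Ncan, Vcan and Bcan showed small differences, and Acan had too few counts to judge. Ncan, the most abundant per length, had 234, 280 and 291 CPM with DMSO and 247, 222 and 278 CPM with GSK-126, a log2 fold change of -0.10 (standard error 0.080). Vcan had 299, 241 and 273 CPM with DMSO and 338, 198 and 305 CPM with GSK-126, a log2 fold change of 0.02 (standard error 0.085). Both groups overlapped for these genes, and in both the pair 2 ratio had the lowest value, -0.33 for Ncan and -0.28 for Vcan on the log2 scale. Bcan had 159, 70.5 and 116 CPM with DMSO and 195, 74.0 and 114 CPM with GSK-126, a log2 fold change of 0.12 (standard error 0.083). For Bcan the libraries of a pair lay closer to each other than to any other library, whatever the treatment. Acan, the lectican that defines most perineuronal nets, was near the limit of detection, with 3, 5 and 3 counts with DMSO and 5, 11 and 5 with GSK-126. These are 0.357 ± 0.103 and 0.742 ± 0.407 CPM (SD, n = 3 each). Acan was higher in all 3 pairs, but with so few counts no fold is given.

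The link protein genes were all low. Hapln4, whose product is known from inhibitory synapses of the cerebellum, had 1.61, 4.37 and 3.30 CPM with DMSO and 1.51, 6.12 and 1.87 CPM with GSK-126. Its pair ratios went in both directions, and the log2 fold change was -0.07 (standard error 0.36). Hapln2, whose product is known from nodes of Ranvier, had 0.92, 0.65 and 1.82 CPM with DMSO and 1.74, 0.86 and 1.33 CPM with GSK-126, a log2 fold change of 0.26 (standard error 0.52). Errors of this size leave room for changes in either direction. Hapln1, cartilage link protein, had 2, 1 and 5 counts with DMSO and 14, 6 and 3 with GSK-126, and the groups overlapped.

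**Figure D2:**
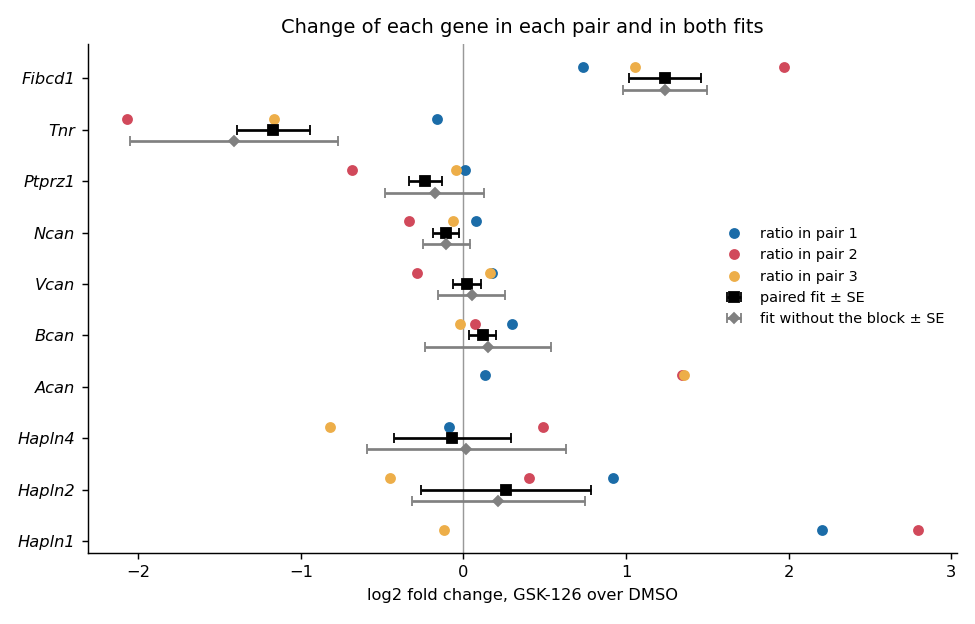
Log2 fold change of GSK-126 over DMSO (horizontal axis) for each gene, as the ratio within each replicate pair (coloured points), the paired fit (black squares) and the fit without the block (grey diamonds), with bars for 1 standard error. Acan and Hapln1 have ratios only, because they were not tested, and Fibcd1 is the gene with the same value, 1.24, in both fits and all points above 0.

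Per kb of exon, the levels of the genes ranged from 0.074 to 35.9 CPM. Ncan was at 35.9, Bcan at 29.9, Vcan at 19.1 and Ptprz1 at 13.5 CPM per kb as means over the 6 libraries. Tnr at 2.77 and Fibcd1 at 2.21 came next, and then Hapln4 at 0.80, Hapln2 at 0.51, Hapln1 at 0.081 and Acan at 0.074. The ranges over libraries overlapped for each pair of neighbours in this order but Hapln2 and Hapln1. Ncan lay above Bcan in 4 of the 6 libraries, and Hapln1 above Acan in 2 of them. Bcan exceeded Vcan, Vcan exceeded Ptprz1 and Ptprz1 exceeded Tnr in all 6 libraries. Tnr lay above Fibcd1 in the 3 DMSO libraries and below it in the 3 GSK-126 libraries, with means of 4.03 and 1.32 CPM per kb with DMSO and 1.51 and 3.11 CPM per kb with GSK-126.

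**Figure D3:**
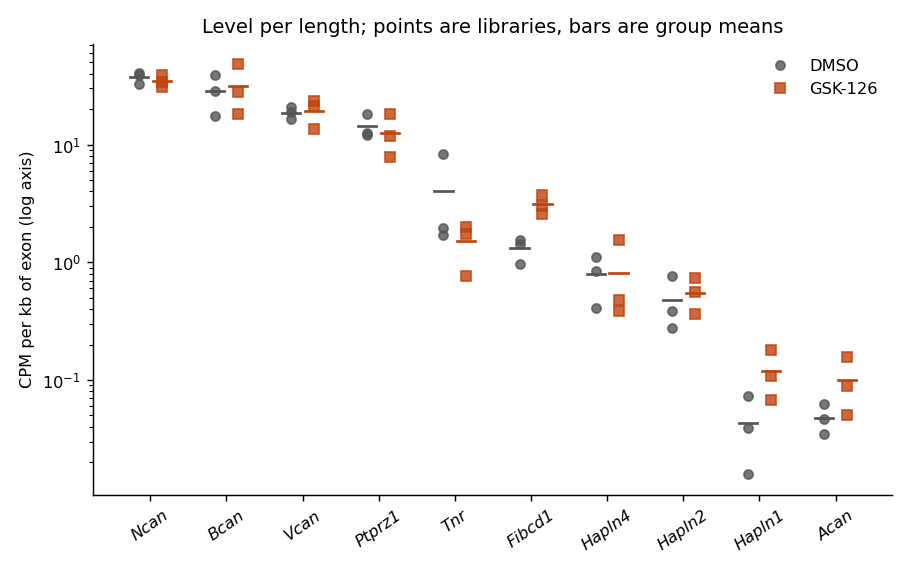
CPM per kb of exon (vertical axis, log scale) for each gene in the 3 DMSO (circles) and 3 GSK-126 (squares) libraries, ordered by the mean over all libraries, with bars for group means. Ncan, Bcan, Vcan and Ptprz1 lie at means of 13.5 to 35.9, while Hapln1 and Acan lie below 0.1 on average.

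Differences between the replicate pairs are a measure that the choice of genes did not use, and they could be tested in the same fit. Of all tested genes 31.4% differed between pairs at an adjusted p under 0.05, and of the 8 tested genes of the matrix 5 did. Bcan had pair means of 177, 72.3 and 115 CPM in pairs 1, 2 and 3, 2.45 times as high in pair 1 as in pair 2 (edgeR's quasi-likelihood F test, Benjamini-Hochberg adjusted p = 5.5e-08). Ptprz1 had 260.0, 145 and 171 CPM (adjusted p = 4.4e-05, edgeR) and Vcan 319, 220 and 289 CPM (adjusted p = 0.0014, edgeR), so that all 3 were highest in pair 1 and lowest in pair 2. Tnr and Hapln4 were instead highest in pair 2. Tnr had pair means of 23.9, 66.9 and 16.0 CPM (adjusted p = 3.3e-05, edgeR), and Hapln4 had 1.56, 5.25 and 2.58 CPM (adjusted p = 0.0121, edgeR). The pair 2 mean of Tnr rests on DMSO replicate 2 at 108 CPM, beside 25.8 CPM in GSK-126 replicate 2. That library also weighed most on the difference of Tnr between the treatments, so for Tnr this measure is not separate from that difference. The pair means of Ncan lay within 1.18 times of each other (adjusted p = 0.137, edgeR), and those of Hapln2 had an adjusted p of 0.390 (edgeR). For Fibcd1 the pair means were 9.81, 11.2 and 10.6 CPM (adjusted p = 0.969, edgeR). Pair 2 held both its lowest and its highest library, 4.56 and 17.8 CPM, so close pair means do not show like levels within a treatment. DESeq2's likelihood ratio test kept 3 of the 5 calls and lost those of Tnr (adjusted p = 0.0511) and Hapln4 (adjusted p = 0.0679). Leaving out pair 1 lost Hapln4 and Ptprz1, and leaving out pair 2 lost Vcan, Hapln4 and Tnr, so that Bcan alone differed between pairs in each of these fits.

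Markers of other cells moved with the pairs too. Astroglia markers (10 genes, such as Gfap, Aqp4 and Slc1a3, none at 0) summed to 8217, 2671 and 4604 CPM in DMSO replicates 1, 2 and 3 and to 8542, 2605 and 4571 CPM in GSK-126 replicates 1, 2 and 3. All 10 differed between pairs in the same fit, and their sum had the pair order of Bcan, Ptprz1 and Vcan. All 8 granule neuron, all 5 oligodendrocyte precursor and all 5 fibroblast and mural markers differed between pairs too. That order was not particular to astroglia. Summed oligodendrocyte markers had pair means of 737, 405 and 629 CPM in pairs 1, 2 and 3, and microglia markers 454, 227 and 347 CPM. Inhibitory neuron and Purkinje cell markers had the same order over a narrow range, 214, 192 and 202 CPM. Other orders were seen for oligodendrocyte precursor markers (163, 150 and 120 CPM) and for fibroblast and mural markers (5520, 6000 and 7195 CPM). Endothelial markers, at 76.2, 60.1 and 81.2 CPM, were lowest in pair 2 and highest in pair 3. The part of these cell types in the levels of those genes was not tested. Granule neuron markers, in contrast, were highest in pair 2, with 4585, 6948 and 5489 CPM with DMSO and 3732, 5622 and 4423 CPM with GSK-126, the order of Hapln4.

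**Figure D4:**
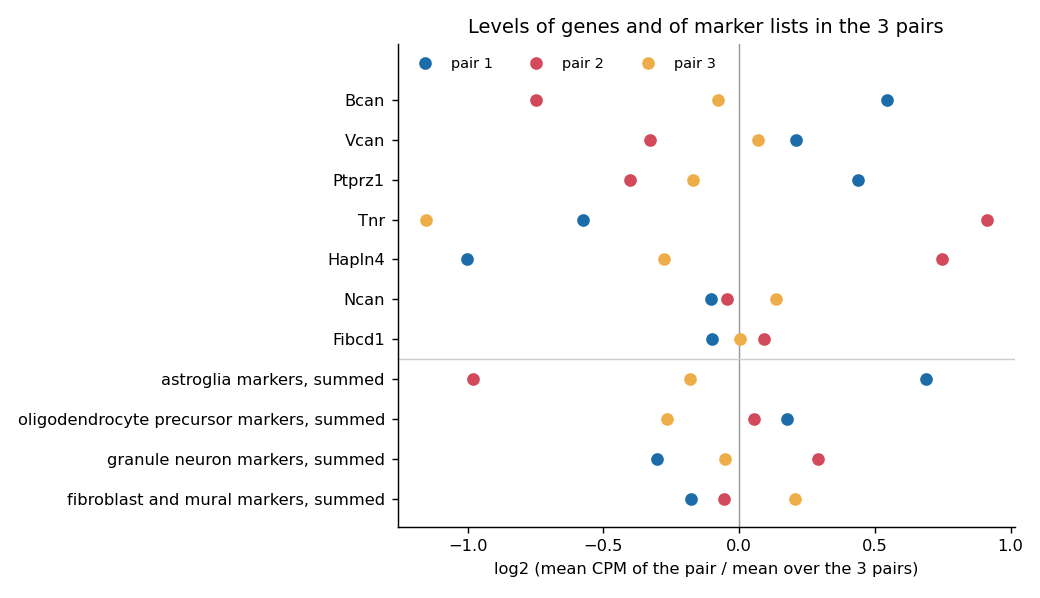
Mean CPM of each replicate pair divided by the mean over the 3 pairs, on a log2 scale (horizontal axis), for 7 of the genes and 4 summed marker lists, with 1 colour for each pair. Bcan, Vcan, Ptprz1 and the astroglia markers have pair 1 on the right and pair 2 on the left, and Tnr and Hapln4 have pair 2 on the right. The points of Fibcd1 lie close together, although pair 2 holds its lowest and its highest library.

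Between the treatments, 5 of the 8 granule neuron markers were lower in the paired fit and 0 higher, with a median log2 fold change of -0.28 beside -0.0056 for all tested genes. Over all tested genes, 3.35% were called higher and 5.09% lower. Fibroblast and mural markers, such as Col1a1 and Pdgfrb, had 3 of 5 higher, and their sum ranged from 4815 to 6860 CPM with DMSO and from 6225 to 7529 CPM with GSK-126. Microglia markers had 2 of 7 higher and sums of 187 to 407 and 267 to 501 CPM. Astroglia markers had 2 of 10 higher and oligodendrocyte markers 1 of 6. Of the 5 oligodendrocyte precursor markers and the 4 endothelial markers tested, 0 were called. Markers of inhibitory neurons and Purkinje cells had 3 of 8 lower, with sums of 210.1 to 243 CPM with DMSO and 162 to 198 CPM with GSK-126 that did not overlap. No list was tested as a whole, and the part of these cell types in the differences of Fibcd1 and Tnr was not tested.

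Around the 10 genes, 6 lists of related genes were read from the same fit, with 80 genes tested. In the paired fit 6 of them passed in the higher and 7 in the lower direction, beside 3.35% and 5.09% of all genes tested. With total counts 9 and 7 of them passed, and over all genes tested 714 were then higher and 707 lower. Without the block 0 of the 80 were called by edgeR or DESeq2. Among matrix relatives, 0 of 11 were higher and 2 lower, with a median log2 fold change of 0.11. Both are testicans, secreted proteoglycans. Spock1 had 202, 229 and 199.7 CPM with DMSO and 154, 170.2 and 135 CPM with GSK-126, groups that did not overlap, and fell by 0.46 on the log2 scale (edgeR, adjusted p = 4.0e-04). Spock2 fell by 0.31 (edgeR, adjusted p = 0.0077), while its groups overlapped. Tnc, a tenascin of immature astroglia, had a log2 fold change of 0.18 (edgeR, adjusted p = 0.130) that passed with total counts (edgeR, adjusted p = 0.0489). Cspg5, neuroglycan C, was at 0.05 (edgeR, adjusted p = 0.744). Hapln3, the link protein next to Acan, was at 1.13 on at most 31 counts in a library (edgeR, adjusted p = 0.258).

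Of 12 genes that make, cut or bind hyaluronan 1 was higher and 0 lower, with a median log2 fold change of 0.25. The gene was Cd44, a hyaluronan receptor, with 227, 134 and 195 CPM with DMSO and 279, 149.8 and 260.3 CPM with GSK-126. It was higher in each pair, and its log2 fold change was 0.29 (edgeR, adjusted p = 0.0172). Has2, a hyaluronan synthase, was at 0.40 (edgeR, adjusted p = 0.543), higher in 2 pairs and lower in 1. Of 21 genes of chondroitin sulfate synthesis 0 were higher and 1 lower, with a median of -0.0047. The gene was Ust, which sulfates uronic acid in the chains, with 65.7, 112 and 75.7 CPM with DMSO and 49.3, 67.3 and 51.0 CPM with GSK-126. Ust fell by 0.58 on the log2 scale (edgeR, adjusted p = 4.1e-04).

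Matrix proteases and their inhibitors had 3 of 14 higher and 0 lower, with a median log2 fold change of 0.13. Timp1, a secreted inhibitor of matrix metalloproteases, had 58.5, 56.6 and 62.8 CPM with DMSO and 70.3, 83.8 and 104 CPM with GSK-126, with no overlap of the groups. The log2 fold change was 0.52 for Timp1 (edgeR, adjusted p = 0.0015) and 0.55 for the stromelysin Mmp3 (edgeR, adjusted p = 0.0105). For Timp3 it was 0.41 (edgeR, adjusted p = 8.0e-04), and 1733 of the 8144 exon bases of Timp3 overlap Syn3 on the opposite strand. The 3 genes comprise 1 protease and 2 inhibitors. Shorter exon overlaps on the opposite strand were annotated for other named genes, Tnc (176 bases), Has2 (182), B4galt7 (110) and Ptprd (7). As the strand setting was not stated, reads of those stretches cannot be assigned either.

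Receptors and binding partners of the matrix had 1 of 13 higher and 4 lower, with a median log2 fold change of -0.17. Rtn4rl1, a Nogo receptor family member that binds chondroitin sulfate, had 13.2, 37.3 and 16.8 CPM with DMSO and 9.60, 19.6 and 6.53 CPM with GSK-126. It fell by 0.90 on the log2 scale (edgeR, adjusted p = 0.0019). Its DMSO replicate 2 was the highest library, as for Tnr, but also for Ust, Spock1, Ptprd, Nrcam and granule neuron markers such as Neurod1 and Zic1. Ptprd, a receptor phosphatase, fell by 0.47 (edgeR, adjusted p = 7.1e-04) with no overlap between the groups. The adhesion molecules Nrcam and Nfasc, known from nodes of Ranvier, fell by 0.28 and 0.27 (edgeR, adjusted p = 0.0291 and 0.0171). Mdk, the growth factor midkine, a ligand of Ptprz1, was the gene that rose, by 0.33 on the log2 scale (edgeR, adjusted p = 0.0241). Ptn, pleiotrophin, the related ligand, was at 0.05 (edgeR, adjusted p = 0.745), and Ptprs, a receptor for chondroitin sulfate, at -0.17 (edgeR, adjusted p = 0.159). Of 9 relatives with a fibrinogen-like domain, the domain of Fibcd1, 1 was higher and 0 lower. It was Angpt2, an angiopoietin of vessels, with a log2 fold change of 0.41 (edgeR, adjusted p = 0.0279) and a list median of 0.070. Of the 13 calls, Angpt2 and Nfasc were lost without any 1 of the pairs. Cd44 and Spock2 were lost without pair 1 or pair 3, and Mdk and Nrcam without pair 2.

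**Figure D5:**
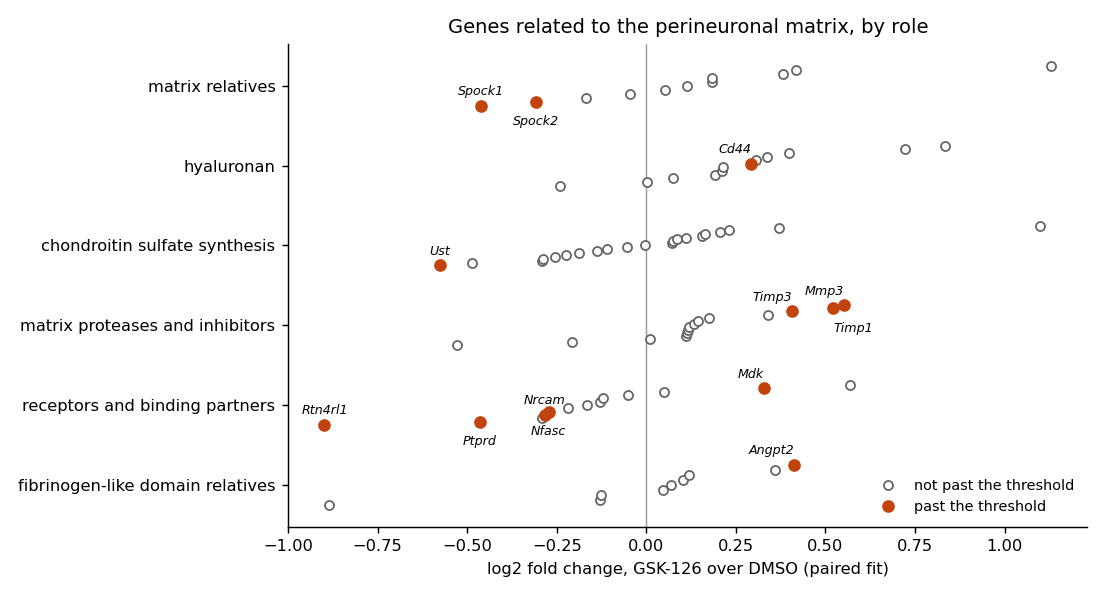
Log2 fold change of GSK-126 over DMSO in the paired fit (horizontal axis) for the 80 tested genes of 6 lists (rows), with filled, named points for the 13 genes past an adjusted p of 0.05 and open points for the others. The named points run from -0.90 (Rtn4rl1) to 0.55 (Mmp3), with the 3 of the protease list all right of 0.

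The genes whose log2 CPM was most like that of Fibcd1 over the 6 libraries were Prickle1 (Pearson r 0.995), Edil3 (0.994), Gm20659 (0.988), B4galt7 (0.988) and 4930426L09Rik (0.988). With 6 libraries in 2 treatments, r includes the difference between the treatments itself. These are the highest values of r among all genes tested, so a like order of the libraries follows from the choice. 4930426L09Rik was near the limit of detection, with 0.46, 0 and 0.43 CPM with DMSO and 0.98, 1.61 and 1.20 CPM with GSK-126. Prickle1 had 23.7, 22.1 and 23.8 CPM with DMSO and 25.7, 27.2 and 26.8 CPM with GSK-126, a smaller difference than that of Fibcd1. In both genes DMSO replicate 2 was the lowest library and GSK-126 replicate 2 the highest. B4galt7, which adds a sugar of the linker that carries chondroitin sulfate chains, is also a gene of the synthesis list.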

How the data were processed

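RNA of cultured CGNs was measured in 6 libraries of poly-A RNA sequenced as paired reads of 150 bases. The authors trimmed reads with Trimmomatic 0.38, aligned them with STAR 2.7.2b to mm10 (GRCm38) and counted reads on exons with HTSeq, and they deposited raw counts per gene without normalization. The strand setting and annotation release were not given in the sources used here, and the symbols match GENCODE M21. Lines that name no gene held 58.7% to 60.7% of the reads and were left out.

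Counts were tested in R 4.3.3 with edgeR 4.0.16 (TMM, filterByExpr, quasi-likelihood test, Benjamini-Hochberg adjustment over all 16729 genes tested), with the replicate number as a block. The biological coefficient of variation was 9.74% with and 24.0% without the block. The block was chosen as the main fit because the libraries were compared in pairs by number, and with the result known that the fit without it makes no call. The study's methods do not name a block. Correlations of deviations from the group means across genes were 0.561, 0.634 and 0.487 for equal numbers and between -0.49 and 0.00638 for unequal ones. Deviations cancel within a group, so positive values for equal numbers push those for unequal numbers down. The latter are therefore no separate evidence for the pairing. Replicates are separate cultures of pooled litters, and the chi-square per gene between libraries of a group was 12.9 or more. DESeq2 1.42.0 was an alternative, as were other scalings, filters, a stricter threshold and libraries left out.

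The 10 members, the lists of related genes and markers and the alternatives were chosen with earlier results of these data known. Named are the members, in each list the 3 calls with the largest rise and fall, 6 relatives whatever their test, and the 5 genes most like Fibcd1 in log2 (CPM + 0.5). Nfasc, the remaining call of the receptor list, falls outside this rule and was added after its value was seen. Other genes named for a list are examples of it.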

Additional observations from a re-analysis of the deposited data

How the results depend on the processing

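Without the replicate block edgeR called 0 genes in either direction and 0 of the related genes, and DESeq2 without it called 20 higher, 1 lower and 0 related genes. DESeq2 with the block called 372 higher and 627 lower. At an adjusted p under 0.01 the paired fit called 242 higher, 474 lower and 3388 between pairs, and of the related genes 2 higher and 5 lower. With libraries left out the ranges were 0 to 558 higher, 0 to 719 lower, 1637 to 5180 between pairs, 0 to 7 related genes higher and 0 to 7 lower, and 2 to 5 of the 8 tested members with a fold change above 0. All the zeros come from fits without the block, which leave 1 library out and break its pair. Pair 2 moved the paired counts most, to 337 higher, 496 lower and 1637 between pairs without it. Of the fold changes of single members under these alternatives, 121 moved by no more than the SD of the gene's own pair log2 ratios. The other 5 moved by more, 4 for Bcan and 1 for Hapln4, all in fits without the block that left 1 library out. Bcan was then between -0.28 and 0.47, and Hapln4 reached -0.87. This SD was 0.16 for Bcan and 0.95 for Tnr, so a gene with unlike pairs could hardly move beyond it. Tnr at -0.28 counts among the 121, so their number is no measure of how stable the genes are. Fibcd1 stayed above 0 and Tnr below 0 in all 16 alternatives. The fits without a pair rest on 2 pairs. Low counts limit Acan, Hapln1, Hapln2 and Hapln4. The causes were not tested.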
